A study of Mus musculus with 18 samples.

Results

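The mitochondrial ribosomal protein genes are the 78 protein-coding genes whose symbol starts with Mrpl or Mrps followed by a digit, out of 55414 genes counted. The rule that picks them reads the symbol and the gene type and no measured value, although the family was taken up with earlier results of these data known. By structure, 51 of the encoded proteins sit in the large subunit of the mitochondrial ribosome and 26 in the small subunit. Mrps36 keeps the family name although its protein is a component of the 2-oxoglutarate dehydrogenase complex. Another 5 genes with such a symbol are processed pseudogenes and were left out.

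The study compared RNA from purified microglia, the resident macrophages of the brain, between male and female mice labelled KO or WT for Chd8, a chromatin remodeler. There were 4 female KO libraries (replicates 33, 16, 1 and 7), 4 female WT (34, 39, 31 and 30), 5 male KO (36, 6, 9, 17 and 40) and 5 male WT (13, 37, 10, 11 and 14). The labels give no strain, age, number of animals per library, Cre promoter or deleted part of Chd8, and they do not explain the prefix HX that all 18 of them carry. Libraries were made from 3' ends of polyadenylated RNA, and each molecule was counted once through its unique molecular identifier (UMI), so a level is not divided by transcript length.

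Mitochondrial ribosomes translate the few proteins that mitochondrial DNA encodes, all of them core subunits of the oxidative phosphorylation complexes. Their proteins are encoded in the nucleus, made in the cytosol and imported, while their ribosomal RNAs are transcribed inside the organelle. Many of the proteins have a counterpart in bacterial ribosomes and the others were added in the mitochondrial lineage. The factors best known for driving nuclear genes of mitochondrial function are NRF1 and GABP, an ETS family factor, and YY1 is also known at such promoters.

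The promoters of these genes were read from the RefSeq table of the GRCm38.p6 assembly, in windows of 250 bases before to 50 after the start. A promoter was found for 69 members (75 promoters), and 9 members were not matched. On either strand, the ETS letters CCGGAAGT stood in 12 of the 75 promoters (16%), against 8.84% of 10628 promoters of genes tested here and 3.89% of all 32851. The YY1 letters AAGATGGCG stood in 8 (10.7%), against 3.36% of the promoters of tested genes. The NRF1 letters GCGCATGCGC stood in 3 (4%) against 2.21%. The cyclic AMP response letters TGACGTCA were in 2 (2.67% against 3.07%), the letters TATAAA in 5 (6.67% against 6.95%) and CCAAT in 30 (40% against 37.6%). A match is only a run of letters, and binding was not measured. The windows below belong to members that passed a test further on. The capitals mark the matched letters, and each window is written on the strand of its gene.
Mrpl51, ETS letters, chr6:125192099-125192128, plus strand: caggggctaaaCCGGAAGTatttgactgga
Mrpl3, ETS letters, chr9:105053238-105053267, plus strand: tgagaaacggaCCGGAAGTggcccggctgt
Mrpl33, ETS letters, chr5:31613937-31613966, plus strand: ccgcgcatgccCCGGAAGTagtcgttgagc
Mrps18c, ETS letters in reverse complement, chr5:100798591-100798620, plus strand: cgggtcacgtgACTTCCGGcccgggaagcg
Mrps26, ETS letters in reverse complement, chr2:130563731-130563760, plus strand: gctccgcggccACTTCCGGgccgggcgcag
Mrpl9, NRF1 letters, chr3:94443298-94443327, plus strand: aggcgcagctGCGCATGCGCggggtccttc
Mrpl42, YY1 letters, chr10:95501903-95501932, minus strand: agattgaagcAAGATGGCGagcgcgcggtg
Mrpl35, YY1 letters, chr6:71823742-71823771, minus strand: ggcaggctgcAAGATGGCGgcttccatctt
In Mrpl42 and Mrpl35 the YY1 letters begin 27 and 23 bases from the start, and in Mrpl33 and Mrpl3 the ETS letters begin 3 and 19 bases before it. The group that passed a test and the group that did not each held promoters with and without these letters.

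The genes lie on 17 chromosomes. For 33 of the 78 (42.3%) another protein-coding gene starts on the opposite strand within 1000 bases, against 1803 of 10019 tested protein-coding genes (18%). Several of these partners belong to the same organelle. Mrpl46 and Mrps11 are both members and start 412 bases apart. Mrps12 starts 172 bases from Sars2, the mitochondrial seryl-tRNA synthetase, and Mrpl36 starts 29 bases from Ndufs6, a subunit of respiratory complex I. Mrpl43 starts 779 bases from Twnk, the mitochondrial DNA helicase. Mrpl51 starts 100 bases from Ncapd2, a subunit of condensin I. A gene on the other strand overlaps 36 members and a gene on the same strand overlaps 13. Whether counting used strand is not given, so tags in those overlaps may belong to either gene.

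Depth differed between the sexes. The 4 female KO libraries held 435838 to 3433078 UMIs each and the 4 female WT libraries 458075 to 1841384, whereas the 5 male KO libraries held 2022957 to 9149144 and the 5 male WT libraries 2050624 to 3441103. Reads per UMI fell into 3 separate ranges that are not spread evenly over the sexes: 1.79 to 1.89 (1 female and 7 male libraries), 2.94 to 3.12 (3 female and 3 male) and 5.52 to 7.26 (4 female and no male). Within females the ranges were uneven over genotype too. From lowest to highest they held 1, 2 and 1 female KO libraries against 0, 1 and 3 female WT. In males they held 4, 1 and 0 KO libraries against 3, 2 and 0 WT. All 12 microglial markers were detected in every library, at a summed 39060 to 47620 CPM (counts scaled to the same total in every library). Chd8 was at 96.4 to 116.5 CPM in male KO against 135.2 to 167.1 in male WT, and at 115.8 to 139.0 in female KO against 132.1 to 185.8 in female WT. In the edgeR test described below, its log2 fold change, KO against WT, was -0.54 ± 0.10 (SE, adjusted p = 0.00171) in males and -0.44 ± 0.12 (0.0547) in females. Averaged over the sexes it was -0.49 ± 0.08 (0.000413). The deleted part is not given, and a transcript that lacks an internal exon would still give a 3' tag. Chd8 levels alone therefore cannot check the KO labels. The labels do not say that libraries came from separate animals, so p-values measure the spread between libraries.

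A filter on low counts kept 10948 genes for testing, and 75 of the 78 members passed it, 49 of the large and 25 of the small subunit together with Mrps36. All values below are CPM scaled by TMM, a factor that corrects for library composition. Of the members, 73 were detected in all 18 libraries. Mean levels of the tested members ran from 2.64 to 304.3 CPM, a 115-fold range, with a median of 50.4. There were 8 members at 100 CPM or more, 61 between 10 and 100, and 6 below 10. Most of the proteins enter the ribosome in equal numbers, and without Mrps36 their transcripts spread 99.5-fold, from 3.06 CPM upward.

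The 5 most abundant transcripts were Mrpl52 (304.3 CPM), Mrpl24 (168.0), Mrps15 (150.7), Mrpl43 (140.2) and Mrps24 (122.1). Mrpl24 and Mrps15 have bacterial counterparts, while Mrpl52 and Mrpl43 are mitochondria-specific. At the low end of the tested members were Mrps36 (2.64), Mrpl1 (3.06), Mrpl19 (7.47), Mrpl35 (8.54) and Mrps33 (8.68). The 3 members left out by the filter were Mrps18b with 77 UMIs over all 18 libraries, Mrps30 with 41 and Mrpl53 with 3. The last 300 bases of Mrpl53 are identical to a stretch of Gm42688, which overlaps it on the same strand and holds 30 UMIs. How shared tags were assigned was not tested.

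The 3 paralogs Mrps18a, Mrps18b and Mrps18c, which trace to a single bacterial protein, differed widely. Mrps18a, whose protein sits in the large subunit despite its name, averaged 77.0 CPM. Mrps18c, which takes the place of the bacterial protein in the small subunit, averaged 23.1 CPM, and Mrps18b, also in the small subunit, averaged 1.54. Mrps30, again a large-subunit protein by position, averaged 0.774 CPM.

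**Figure D1:**
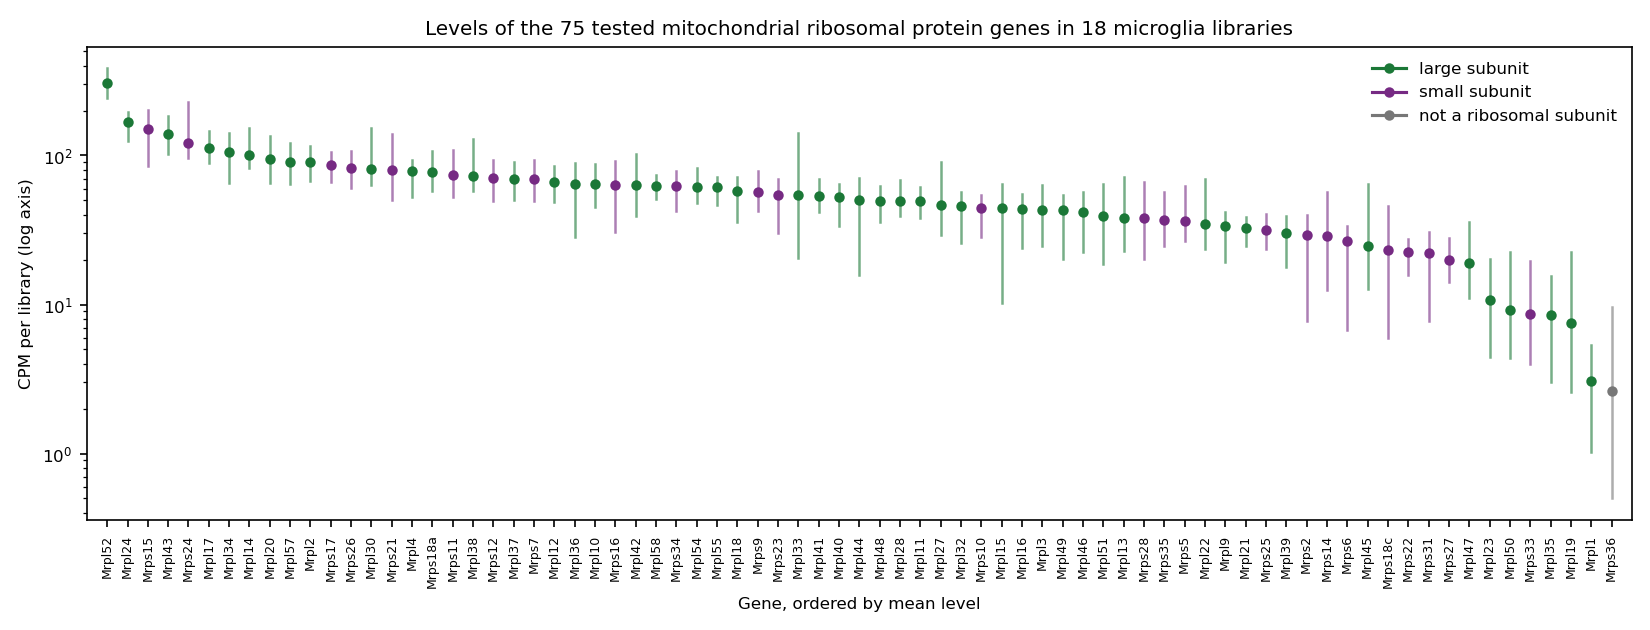
Mean level of each of the 75 tested mitochondrial ribosomal protein genes over 18 libraries (points, CPM on a log axis), with a line from the lowest to the highest library above 0, coloured by subunit. Most genes lie between 10 and 100 CPM around a median of 50.4, and Mrpl52 stands above all others at 304.3.

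Within a gene the libraries differed less than the genes differed from each other. The highest library stood 2.19-fold above the lowest at the median member. Summed over all members, libraries ran from 4070 to 5056 CPM, a 1.24-fold range. The sum was 4513 ± 441.9 (SD, n = 4) in female KO, 4427 ± 241.7 (n = 4) in female WT, 4325 ± 166.8 (n = 5) in male KO and 4343 ± 169.1 (n = 5) in male WT, and the 4 groups overlapped.

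Cytosolic ribosomal proteins, the counterpart set outside the organelle, varied more. Their sum ran from 48000 to 104500 CPM, a 2.18-fold range. The mean was 92480 ± 5588 (SD) in female WT and 69780 ± 24050 in female KO. In males it was 59850 ± 4609 in WT and 53270 ± 4700 in KO. Female KO 33 held the highest sum of all libraries, at 104500. The other female KO libraries, at 49680 to 65320, lay below female WT, at 85830 to 99270. Nuclear genes of oxidative phosphorylation, which assemble with the products of mitochondrial ribosomes, ran from 10860 to 15570 CPM, a 1.43-fold range. The mitochondrially encoded mRNAs themselves, which these ribosomes read, ran from 670.3 to 9427 CPM. In bulk RNA, fewer cells of a type and less RNA per cell cannot be told apart.

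**Figure D2:**
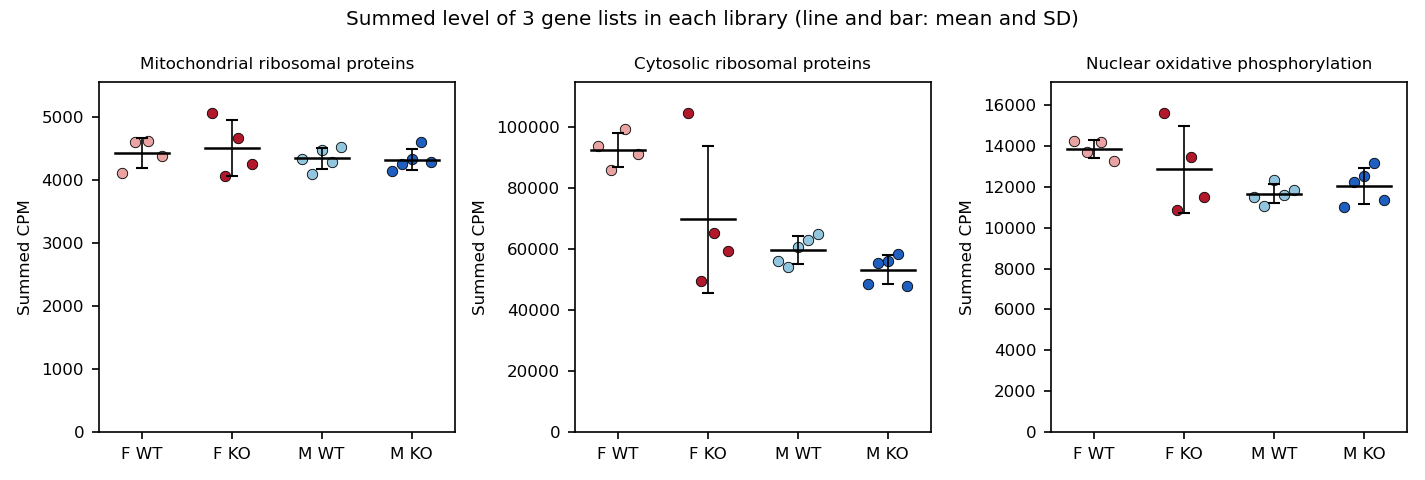
Summed CPM of the mitochondrial ribosomal proteins, the cytosolic ribosomal proteins and the nuclear genes of oxidative phosphorylation in each library (points) by sex (F, M) and genotype, with mean and SD; axes start at 0. The first sum stays between 4070 and 5056 in every library, while the cytosolic ribosomal proteins run from 48000 to 104500.

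The first question of the design is how libraries labelled KO for Chd8 differed from WT libraries. A gene was called where edgeR's quasi-likelihood test gave a Benjamini-Hochberg adjusted p under 0.05 over all genes. In males 2 of the 75 tested members were called (2.67%), against 6.24% of all tested genes (3.37% higher and 2.87% lower), and in females none were, against 2.68% of all genes. With the KO effect averaged over the sexes, which uses all 18 libraries, 6 members were called, 3 higher and 3 lower (8%, against 9.5% of all genes, of which 4.37% higher and 5.13% lower). These shares were near or under the background. The median log2 fold change of the members was close to that of all genes: it was 0.01 in males (all genes -0.01), 0.02 in females (0.01) and 0.02 on average (0.00). In females 9 members had an unadjusted p under 0.05, and DESeq2 called none either.

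Mrpl51, a mitochondria-specific protein of the large subunit, fell furthest among the called members. In the male KO libraries it stood at 18.8, 29.5, 22.9, 28.9 and 20.5 CPM. In the male WT libraries it stood at 40.4, 33.0, 39.5, 47.2 and 49.1. Every male KO library lay below every male WT library. The female KO libraries were at 64.3, 25.5, 41.7 and 26.7 CPM and the female WT libraries at 40.3, 56.8, 60.1 and 62.7. Here the groups overlapped: female KO 33, the library with the fewest UMIs, was the highest of the 8, and female WT 34 lay among the KO values.

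The log2 fold change of Mrpl51 was -0.82 ± 0.19 (SE, edgeR adjusted p = 0.00959) in males and -0.72 ± 0.23 (adjusted p = 0.110) in females. Averaged over the sexes it was -0.77 ± 0.15 (adjusted p = 0.00235). The difference between the sexes was 0.10 and did not pass. The gene lies at chr6:125191801-125196269 on the plus strand. On read counts before UMI correction the call was lost, with adjusted p = 0.113 in males and 0.0690 on average, and it held in each of the other alternatives run for those comparisons. Without female KO 33 it was also called in females. With the range of reads per UMI as a covariate, the log2 fold change of Mrpl51 was -0.43 in females (edgeR adjusted p = 0.472). Averaged over the sexes it was then -0.58 (edgeR adjusted p = 0.0344).

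Ncapd2, which starts 100 bases away on the opposite strand, was looked at because of its position. It was at 7.41 ± 1.71 CPM in female KO (SD, n = 4), 18.3 ± 4.12 in female WT (n = 4), 6.49 ± 1.79 in male KO (n = 5) and 6.95 ± 1.14 in male WT (n = 5). In females its log2 fold change was -1.19 ± 0.27 (SE, edgeR adjusted p = 0.0224), while in males it was -0.13 ± 0.22 (adjusted p = 0.841). The difference between the female and male effects did not pass the test (edgeR adjusted p = 0.320). Averaged over the sexes, Ncapd2 was called, with a log2 fold change of -0.66 ± 0.17 (SE, edgeR adjusted p = 0.0186).

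Mrpl17, a large-subunit protein with a bacterial counterpart, was the other member called in males. Its male KO libraries stood at 112.2, 125.8, 145.9, 129.9 and 112.4 CPM, all above the male WT libraries at 102.2, 88.6, 94.1, 96.7 and 94.4. Its log2 fold change was 0.39 ± 0.11 (SE, edgeR adjusted p = 0.0434). This call is close to the threshold and was lost in 12 of 19 alternatives, over which the adjusted p ran from 0.00627 to 0.571. The female KO libraries, at 144.1, 100.7, 143.7 and 106.8 CPM, overlapped the female WT libraries, at 98.5, 128.1, 100.6 and 105.3.

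Over all tested genes 5.27% had male KO libraries all above male WT and 4.58% all below; among the members these counts were 2 and 4. Values nearest to the threshold in males that did not pass were Mrpl34 (0.38, adjusted p = 0.0601) and Mrps15 (0.35, 0.120) above 0. Below 0 they were Mrpl11 (-0.34, 0.0817) and Mrps28, the mitochondrial relative of bacterial S1 (-0.48, 0.111). No member separated the female KO from the female WT libraries in either direction, against 2.48% (higher) and 2.84% (lower) of all tested genes.

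The members closest to a call in females, all short of it, were Mrpl3 (log2 fold change 0.50, adjusted p = 0.144), Mrps15 (0.35, 0.255) and Mrpl16 (0.40, 0.282) above 0. Beside Mrpl51, Mrps36 (-1.60, 0.1504) and Mrps21 (-0.44, 0.236) were below 0. With the range of reads per UMI as a covariate, the values were 0.49 (Mrpl3), 0.43 (Mrps15), 0.36 (Mrpl16), -1.76 (Mrps36) and -0.12 (Mrps21). Mrps36 rests on few molecules: it was at 0, 1.96, 2.06 and 1.84 CPM in female KO and 4.48, 6.40, 9.55 and 0.774 in female WT. It also has an identical stretch in Mrps36-ps1, a pseudogene that holds 100 UMIs.

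Averaged over the sexes, the 3 members that rose were Mrps15, Mrpl34 and Mrpl3. Mrps15 is a small-subunit protein whose bacterial counterpart binds rRNA early in assembly. It stood at 146.7, 163.5, 168.4 and 180.8 CPM in female KO and 85.1, 112.0, 160.2 and 149.4 in female WT, then at 178.0, 159.0, 201.6, 161.5 and 167.9 in male KO and 118.7, 123.6, 130.6, 145.9 and 159.7 in male WT. In each sex the KO group ran higher, and in each the groups overlapped. Averaged, its log2 fold change was 0.35 ± 0.10 (SE, edgeR adjusted p = 0.0280), and the call was lost in 4 of 26 alternatives.

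Mrpl34, a small protein of the large subunit, was at 120.9, 100.7, 112.8 and 94.3 CPM in female KO against 78.4, 102.4, 98.4 and 65.04 in female WT. In males it was at 117.3, 137.8, 122.0, 141.5 and 117.4 in KO against 105.9, 87.2, 108.6, 85.4 and 102.3 in WT. The male groups did not overlap and the female groups did. Its averaged log2 fold change was 0.33 ± 0.09 (SE, edgeR adjusted p = 0.0302). The call was lost in 9 of 26 alternatives, among them the range of reads per UMI as a covariate (adjusted p = 0.125).

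Mrpl3, whose bacterial counterpart reaches toward the peptidyl transferase centre, was at 30.9, 47.4, 41.7 and 43.3 CPM in female KO and 33.6, 24.8, 34.8 and 28.7 in female WT. In males it was at 58.6, 47.4, 43.3, 53.7 and 63.0 in KO and 42.4, 52.1, 37.0, 50.4 and 43.7 in WT. The groups overlapped in both sexes, and the averaged log2 fold change was 0.37 ± 0.11 (SE, edgeR adjusted p = 0.0344). This call was lost in 10 of 26 alternatives, the same covariate included (adjusted p = 0.153).

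The 3 members that fell on average were Mrpl51, Mrpl11 and Mrpl23. Mrpl11 belongs to the base of the stalk where translation factors dock. It was at 40.3, 37.9, 51.3, 43.3 and 39.2 CPM in male KO and 47.1, 53.9, 55.1, 57.6 and 52.9 in male WT, with female KO at 61.8, 44.0, 43.3 and 42.1 and female WT at 51.5, 50.4, 58.5 and 60.4. Female KO 33 was the highest of its group, and the other 3 female KO libraries all lay below female WT. In males only KO 9 reached into the WT range. The averaged log2 fold change was -0.32 ± 0.09 (SE, edgeR adjusted p = 0.0300), and the call was lost in 17 of 26 alternatives. Among these was the range of reads per UMI as a covariate (-0.19, edgeR adjusted p = 0.292).

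Mrpl23, which in bacteria lies at the exit of the nascent chain tunnel, was at 12.9, 9.54, 10.8 and 6.14 CPM in female KO and 20.2, 11.2, 17.4 and 13.9 in female WT. In males it was at 8.02, 6.93, 4.48, 7.98 and 6.70 in KO and 5.38, 13.5, 10.5, 9.56 and 17.9 in WT. Both pairs of groups overlapped. Its averaged log2 fold change was -0.73 ± 0.21 (SE, edgeR adjusted p = 0.0347). The call was lost in 12 of 26 alternatives, among them the same covariate (-0.52, edgeR adjusted p = 0.299). The averaged value is uncertain because the last 298 bases of Mrpl23 are identical to Mrpl23-ps1, a pseudogene that holds 463 UMIs. That copy had an averaged log2 fold change of -0.31 ± 0.42 (edgeR adjusted p = 0.733).

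**Figure D3:**
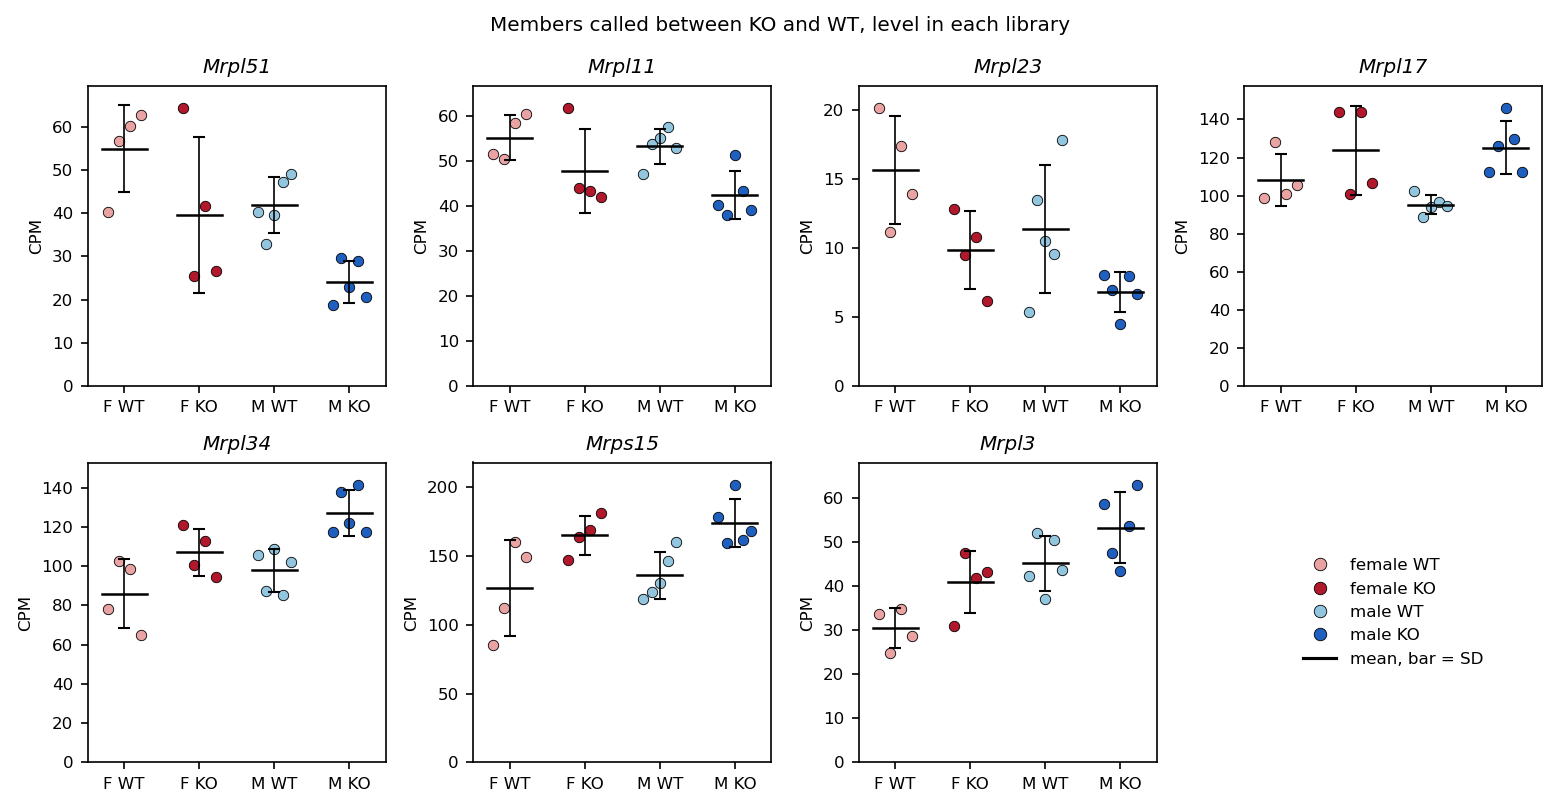
Level in CPM of the 7 members called between KO and WT, in each library (points) by sex (F, M) and genotype, with mean and SD; axes start at 0. Mrpl51 separates the male groups completely, at 18.8 to 29.5 in KO against 33.0 to 49.1 in WT. Female KO replicate 33 is the highest of its group for Mrpl51, Mrpl11, Mrpl23, Mrpl17 and Mrpl34 and the lowest for Mrps15 and Mrpl3.

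No member was called for a difference of the KO effect between the sexes, against 0.237% of all tested genes. At so low a share, the absence of a call says little about the members. By edgeR 3 members had an unadjusted p under 0.05 for this difference, and DESeq2 called none. The lowest p values belonged to Mrpl16 (0.58, adjusted p = 0.451), Mrpl46 (0.48, 0.509) and Mrps26 (0.31, 0.676) on the side higher in females. On the other side were Mrps36 (-1.62, 0.530), Mrpl55 (-0.26, 0.759) and Mrps5 (-0.32, 0.761).

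Markers of other cells moved with genotype. In male KO against male WT, 5 of 5 tested neuronal markers of 8 listed rose (summed 69.5 to 330.7 CPM against 13.2 to 37.5). So did 2 of 3 tested astrocyte markers of 8 (250.1 to 464.2 against 130.3 to 179.2), 3 of 5 tested oligodendrocyte markers of 8 (243.3 to 832.4 against 101.4 to 154.6) and 7 of 8 markers of border-associated macrophages (162.1 to 261.8 against 34.0 to 59.3). In female KO against female WT, 4 of 6 tested monocyte markers of 8 fell (82.6 to 113.2 against 113.0 to 421.3) and 6 of 8 neutrophil markers fell (1000 to 5305 against 2166 to 15830). No listed marker was at 0 in all libraries. Their part in the changes of Mrpl51 and the other members was not tested. The neuronal sum was highest in male KO 6, 9 and 17 (264.7, 330.7 and 204.6 CPM). With these left out, Mrpl51 was called in males and Mrpl17 was not, while averaged over the sexes Mrpl51 and Mrpl3 were called and Mrps15, Mrpl34, Mrpl11 and Mrpl23 were not. Within the lowest range of reads per UMI alone, males gave a log2 fold change of -0.66 for Mrpl51 (edgeR adjusted p = 0.0369) and 0.33 for Mrpl17 (0.0523). Of the 12 microglial markers 2 fell in male KO (summed 39890 to 45470 CPM against 43700 to 47620). In female KO 1 of them fell, while their sum was higher without overlap (42910 to 46130 CPM against 39060 to 41150 in female WT).

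The second question of the design is how male and female microglia differed. Among WT libraries 13 of the 75 tested members were called (17.3%), the same share as among all tested genes (17.3%). Of these, 8 were lower in males (all genes 10.3%) and 5 higher (6.94%). Among KO libraries 8 members were called (10.7%), against 7.1% of all genes, and all 8 were lower in males (4.27% of all genes lower and 2.83% higher). The median log2 fold change stayed near 0 in WT (0.02, all genes -0.01) and in KO (-0.03, all genes -0.02). By subunit, 7 of 49 tested large-subunit and 6 of 25 small-subunit members were called in WT. By origin, 10 of 46 members with a bacterial counterpart and 3 of 28 mitochondria-specific members were called.

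**Figure D4:**
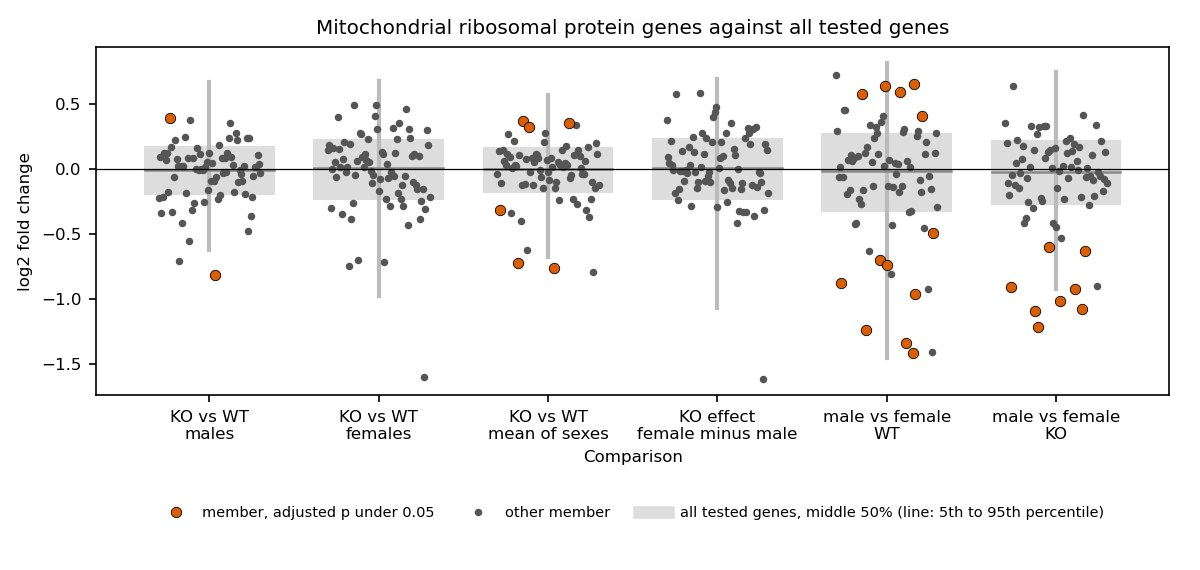
Log2 fold change of each of the 75 tested members (points, called ones larger and orange) in the 6 comparisons, over the middle 50% (box) and the 5th to 95th percentile (line) of all 10948 tested genes. The members centre on 0 in every comparison, and the called ones number 2, 0, 6, 0, 13 and 8 from left to right.

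There were 6 members called in both genotypes, each higher in females (8%, against 2.58% of all tested genes called higher in females in both and 1.47% higher in males in both): the small-subunit genes Mrps14, Mrps18c and Mrps21 and the large-subunit genes Mrpl13, Mrpl33 and Mrpl42. Of these, only Mrpl42 is mitochondria-specific. Their calls in KO were lost in 1 (Mrpl13) to 10 (Mrps21) of 18 alternatives. Mrps14, a protein of the head of the small subunit, was at 33.6, 44.0, 57.3 and 35.6 CPM in female WT and 15.1, 15.2, 12.5, 24.03 and 18.8 in male WT. In KO it was at 36.0, 23.3, 52.0 and 44.2 in females and 20.3, 25.5, 18.4, 23.6 and 15.8 in males. The WT groups did not overlap, and among the KO libraries only female KO 16 reached into the male range. The log2 fold change, male against female, was -1.34 ± 0.24 (SE, edgeR adjusted p = 0.000665) in WT and -0.92 ± 0.23 (0.0177) in KO.

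Mrps18c was at 31.4, 32.8, 42.2 and 32.5 CPM in female WT and 13.1, 13.8, 6.01, 18.5 and 13.1 in male WT. It was at 25.7, 20.8, 45.8 and 40.2 in female KO and 15.4, 20.1, 13.9, 14.1 and 16.5 in male KO. Every female library lay above every male library. Male against female, it had a log2 fold change of -1.42 ± 0.25 (SE, edgeR adjusted p = 0.000693) in WT and -1.08 ± 0.24 (0.00869) in KO. Helq, a DNA helicase gene that starts 29 bases away on the other strand, had -0.26 ± 0.30 (adjusted p = 0.588) in WT.

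Mrps21, a small protein of the small subunit, was at 127.6, 104.0, 118.0 and 127.7 CPM in female WT against 64.6, 50.3, 63.6, 59.9 and 65.7 in male WT. The female KO libraries were at 139.0, 56.1, 100.4 and 82.3 and the male KO libraries at 50.6, 58.7, 60.2, 62.3 and 53.1, so that only female KO 16 lay among the males. The log2 fold change was -0.97 ± 0.17 (SE, edgeR adjusted p = 0.000519) in WT and -0.63 ± 0.17 (0.0269) in KO.

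Mrpl13 was at 33.6, 44.0, 58.5 and 50.3 CPM in female WT and 24.9, 23.03, 23.5, 33.0 and 26.5 in male WT. In KO it was at 72.1, 39.8, 51.0 and 63.3 in females and 26.6, 29.5, 27.4, 28.9 and 30.9 in males. All female libraries were above all male libraries. Its log2 fold change was -0.88 ± 0.17 (SE, edgeR adjusted p = 0.00161) in WT and -0.91 ± 0.16 (0.00234) in KO. Mtbp, which starts 340 bases away on the other strand and overlaps Mrpl13, did not share the direction (0.11 ± 0.38, adjusted p = 0.892, in WT).

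Mrpl42 was at 64.9, 92.04, 102.3 and 68.1 CPM in female WT and 46.8, 52.4, 39.5, 67.8 and 49.4 in male WT. Male WT 11 alone reached into the female range. In KO the females stood at 66.9, 71.0, 90.1 and 78.6, all above the males at 49.99, 47.0, 52.3, 47.9 and 57.7. The log2 fold change was -0.70 ± 0.16 (SE, edgeR adjusted p = 0.00397) in WT and -0.60 ± 0.15 (0.0198) in KO.

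Mrpl33 varied widely among the females, at 94.0, 48.0, 101.2 and 130.8 CPM in female WT and 141.5, 33.7, 46.4 and 55.6 in female KO. The male values were tighter, at 34.98, 37.9, 38.5, 44.9 and 41.5 in WT and 30.8, 26.98, 25.9, 20.6 and 29.5 in KO. In both genotypes all females were above all males. This gave a log2 fold change of -1.24 ± 0.28 (SE, edgeR adjusted p = 0.00420) in WT and -1.10 ± 0.29 (0.0254) in KO. The 4 female libraries with the highest reads per UMI held its 4 highest values. Rbks, which overlaps Mrpl33 on the other strand, had -0.24 ± 0.26 (edgeR adjusted p = 0.561) in WT and -0.11 ± 0.26 (0.853) in KO. For KO against WT averaged over the sexes, Rbks was called (-0.76 ± 0.18, 0.0105) and Mrpl33 was not (-0.63).

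Called in WT but not in KO, and lower in males, were Mrpl47 (-0.74 ± 0.22, adjusted p = 0.0244) and Mrps5 (-0.49 ± 0.16, 0.0403). The 5 members higher in males, again called in WT but not in KO, were Mrpl46 (0.64 ± 0.15, adjusted p = 0.00689), Mrpl9 (0.59 ± 0.16, 0.0158), Mrpl3 (0.58 ± 0.16, 0.0182), Mrps26 (0.41 ± 0.13, 0.0323) and Mrps2 (0.65 ± 0.22, 0.0453). Of these calls Mrps5 was lost in 11, Mrps26 in 10, Mrpl47 and Mrps2 in 9, Mrpl3 in 3 and Mrpl46 and Mrpl9 in 2 of 17 alternatives. That the sex difference itself depends on genotype was not shown for any of them, since no member passed the test of that difference.

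Mrpl46, a mitochondria-specific protein of the large subunit, was at 22.4, 32.01, 38.2 and 28.7 CPM in female WT, all below male WT at 49.1, 46.1, 51.1, 44.3 and 56.8. In KO the sexes overlapped, at 48.9, 36.5, 45.8 and 32.9 in females and 44.9, 37.9, 42.8, 48.8 and 45.1 in males. Its head-to-head partner Mrps11 had a log2 fold change of 0.29 ± 0.16 (SE, edgeR adjusted p = 0.247) in WT. Mrpl9 was at 29.1, 29.6, 24.2 and 19.4 CPM in female WT and 35.7, 35.4, 35.04, 39.7 and 42.1 in male WT, again with no overlap.

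Called in KO but not in WT, and lower in males, were Mrpl35 and Mrpl50. Mrpl35 was at 10.3, 11.2, 13.4 and 15.7 CPM in female KO and 6.33, 6.93, 6.47, 4.91 and 4.16 in male KO (-1.22 ± 0.27, edgeR adjusted p = 0.00974). Mrpl50 was at 10.3, 13.2, 13.4 and 12.6 against 6.75, 4.38, 6.47, 4.91 and 8.02 (-1.02 ± 0.26, adjusted p = 0.0218). Both pairs of groups were separate, at levels near 10 CPM and below. The members nearest to a call in the other direction were Mrpl15 (0.64, adjusted p = 0.0554), Mrpl40 (0.33, 0.0857) and Mrpl3 (0.33, 0.166), and none passed in edgeR; DESeq2 also called Mrpl15.

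Among WT libraries 4 members had all males above all females (8.81% of all tested genes did) and 6 had all males below (9.41%). Among KO libraries these counts were 2 (4.69%) and 6 (4.53%).

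**Figure D5:**
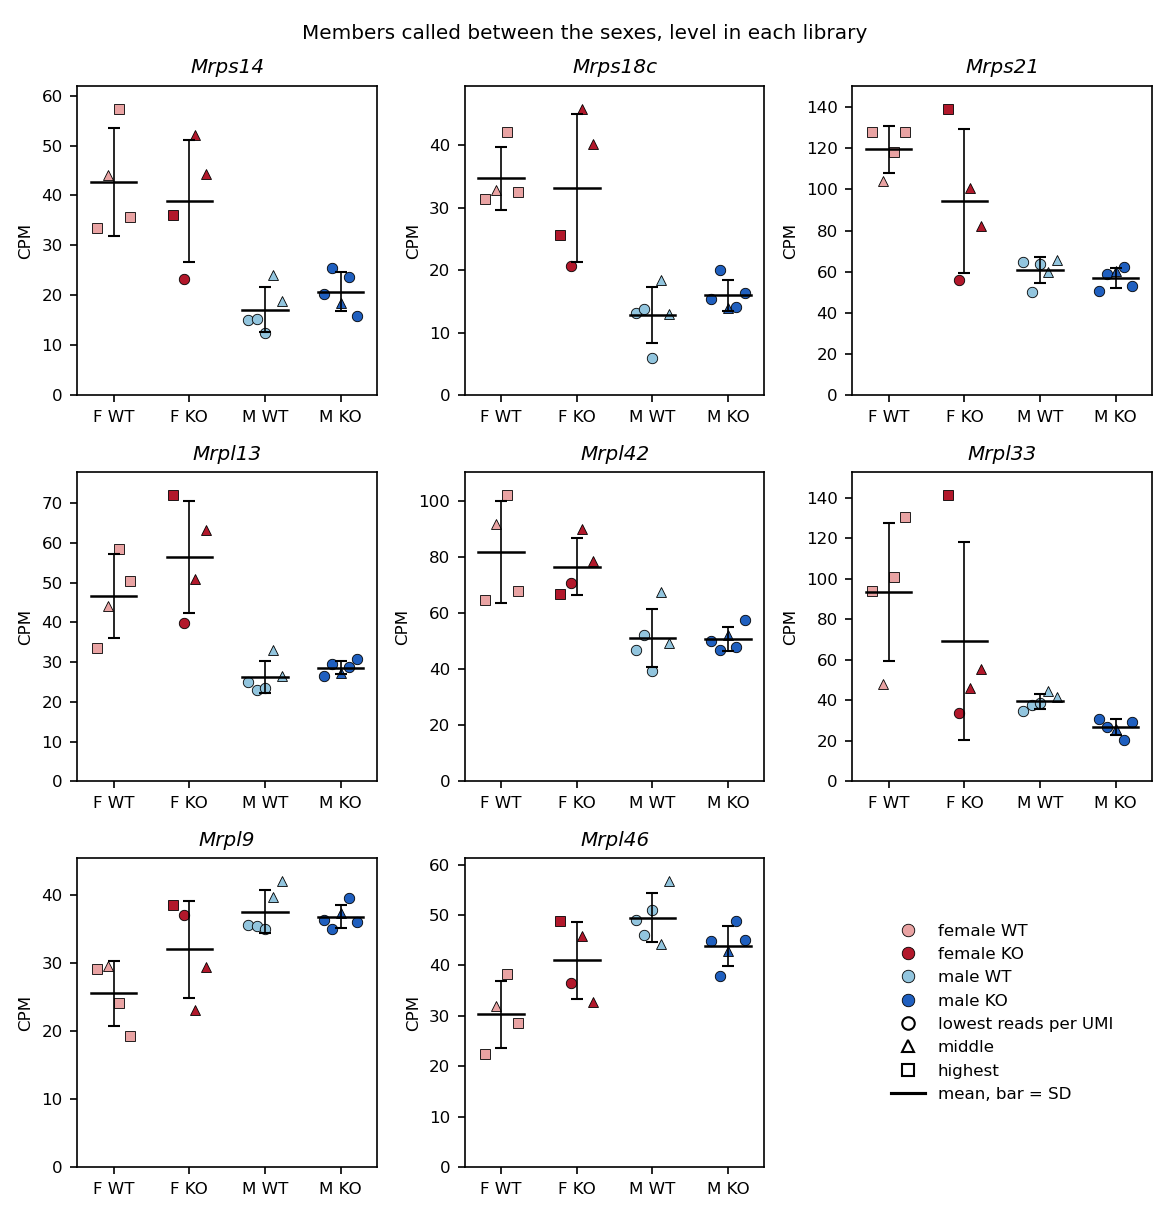
Level in CPM of the 6 members called between the sexes in both genotypes and of Mrpl9 and Mrpl46, called in WT, in each library by sex (F, M) and genotype; symbols give the range of reads per UMI, lines and bars mean and SD, and axes start at 0. For Mrps18c, Mrpl13 and Mrpl33 every female library of a genotype lies above its males, and female KO 16, the female circle, is the lowest female value among the female KO libraries for Mrps14, Mrps18c, Mrps21, Mrpl13 and Mrpl33.

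Because reads per UMI differ between the sexes, the sex values were also set side by side within a range. In the middle range, with 3 female and 3 male libraries of mixed genotype, the sexes did not overlap for 23 of the 75 tested members (30.7%), against 25.4% of all tested genes. Among them were 11 of the 15 members called in either genotype and all 6 called in both, but those calls used the same libraries, so this is a description. Mrps14 was at 44.0 to 52.0 CPM in these females and 18.4 to 24.03 in these males. Mrps18c was at 32.8 to 45.8 against 13.1 to 18.5, and Mrpl13 at 44.0 to 63.3 against 26.5 to 33.0. Mrps21 (82.3 to 104.0 against 59.9 to 65.7), Mrpl42 (78.6 to 92.04 against 49.4 to 67.8) and Mrpl33 (46.4 to 55.6 against 25.9 to 44.9) were closer.

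In the lowest range, female KO 16 is the only female library beside 7 males. It lay above all of them for Mrpl13, Mrpl42, Mrps18c, Mrpl35, Mrpl47 and Mrpl50, and below all of them for Mrpl46. The margin was small for Mrps18c (20.75 CPM against at most 20.05), Mrpl47 (17.95 against at most 17.87) and Mrpl46 (36.46 against at least 37.92). For the other 8 of the 15 it lay inside the male range. Of these, Mrps14, Mrps21, Mrpl33 and Mrps5 were called higher in females, and Mrpl3, Mrpl9, Mrps2 and Mrps26 higher in males. The highest range holds no male library, so there sex and range cannot be told apart. With the range as a covariate, 1 member was called among WT libraries, and it was Mrpl45 rather than any of the 13. Mrps14 then had a log2 fold change of -1.14 (edgeR adjusted p = 0.0570), Mrps18c -1.25 (0.0617), Mrpl42 -0.75 (0.0649), Mrpl13 -0.51 (0.260), Mrps21 -0.46 (0.238) and Mrpl33 0.02 (0.993). Mrps2 went from 0.65 to 0.07 (0.954). Among KO libraries 3 members were called with the covariate, Mrpl13, Mrpl33 and Mrpl35. Without male KO 6, 9 and 17 no member was called in KO, and without female KO 7 the count was 1 (Mrpl13). In WT the count was lowest without female WT 30, at 8, and Mrps14, Mrps18c, Mrps21, Mrpl13, Mrpl42 and Mrpl33 were among them.

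Cell markers moved with sex as well. Of the 12 microglial markers, 3 were higher and 1 lower in WT males (summed 43700 to 47620 CPM against 39060 to 41150 in females, without overlap), and 1 was higher and 3 lower in KO males (39890 to 45470 against 42910 to 46130). In WT, 8 of 8 neutrophil markers (314.1 to 1156 CPM in males against 2166 to 15830 in females), 6 of 6 tested monocyte markers of 8 (32.8 to 62.8 against 113.0 to 421.3) and 7 of 8 markers of border-associated macrophages (34.0 to 59.3 against 154.2 to 319.9) were lower in males, as was 1 of 3 tested endothelial and mural markers, while 1 of 3 tested astrocyte markers was higher. In KO, 3 of 8 neutrophil markers were lower in males (328.8 to 632.9 against 1000 to 5305), as were 3 of 6 tested monocyte markers (29.2 to 63.2 against 82.6 to 113.2), while 2 neuronal, 2 astrocyte and 3 oligodendrocyte markers were higher in males. Their part in the sex differences of the members was not tested.

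Genes that work with the mitochondrial ribosome were compared between KO and WT in the same fit. Of 5 tested mitoribosomal proteins with other names edgeR and DESeq2 called none in either sex (1 in each sex at an unadjusted p under 0.05). Of 27 assembly and rRNA modification factors, 2 were called in males (7.41%, against 6.24% of all tested genes) and none in females (2.68% of all). Tfb1m, a methyltransferase of the small-subunit rRNA, rose in male KO (0.71 ± 0.19, edgeR adjusted p = 0.0209). Mettl17, an assembly factor of the small subunit, fell (-0.44 ± 0.13, 0.0388). Neither tool called any of 14 tested translation factors (2 in males and 1 in females at an unadjusted p under 0.05) or of 18 tested mitochondrial aminoacyl-tRNA synthetases (1 and 4). Averaged over the sexes, Sars2 fell and Fars2 rose (11.1% of these synthetases, against 9.5% of all tested genes). Of 17 tested genes of mitochondrial DNA maintenance, transcription and biogenesis, 1 was called in males and on average (5.88% each, under the shares of all tested genes). It was Gabpa, the DNA-binding subunit of GABP, which rose in male KO (0.59 ± 0.18, edgeR adjusted p = 0.0493) and on average (0.55 ± 0.14, 0.0178).

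Between the sexes in WT, the calls covered 11.1% of the assembly factors, 21.4% of the translation factors, 5.56% of the synthetases and 11.8% of the maintenance and biogenesis genes, shares near or under the 17.3% of all tested genes. Slirp, an RNA-binding protein that stabilises mitochondrial mRNAs, was lower in males in WT (-1.71 ± 0.29, edgeR adjusted p = 0.000375) and in KO (-2.43 ± 0.29, 3.72e-05), and Gabpb1, the partner subunit of Gabpa, was higher in males (1.22 ± 0.24, 0.00142, in WT and 0.90 ± 0.21, 0.0121, in KO). Nrf1 itself was lower in males in WT (-0.40 ± 0.14, 0.0423). Among assembly factors Nsun4 and Mterf3 were higher and Tfb1m lower in WT males, and edgeR called none of the 27 between the sexes in KO (3 at an unadjusted p under 0.05, and 1 called by DESeq2). Of 6 tested mitochondrially encoded mRNAs of 13, 5 were lower in WT males (median -2.07), of which mt-Cytb had the lowest p and the smallest fold (-1.59 ± 0.35, adjusted p = 0.00330). Summed over all 13, female WT 34, 39, 31 and 30 stood at 9427, 4777, 996.4 and 1971 CPM. The male WT libraries ran from 738.7 to 1286, so female WT 31 lay among them. In KO, 1 of the 6, mt-Co1, was lower in males (-2.51 ± 0.70, adjusted p = 0.0339), and the median was -0.08; edgeR and DESeq2 called none of the 6 for the difference of effects (2 at an unadjusted p under 0.05). In WT, of the 2 mitochondrial rRNAs mt-Rnr2 was lower (-2.57 ± 0.83, 0.0379). Chchd1, a small-subunit protein outside the naming family, was also lower in WT males (-0.40 ± 0.13, 0.0319).

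Neighbouring systems gave the following counts, to be read beside the shares of all tested genes. Those were 10.3% lower and 6.94% higher in WT males. They were 2.87% lower and 3.37% higher in male KO, and 2.68% in either direction in female KO. Reads per UMI also differ between the sexes and, within females, between KO and WT, and their part in these counts was not tested. Of 84 tested cytosolic ribosomal protein genes, 58 (69%) were lower in WT males and none higher, with a median of -0.70. Of the same 84, 2 fell in male KO (2.38%) and 18 in female KO (21.4%). Of 79 tested nuclear genes of oxidative phosphorylation, 24 were lower and 1 higher in WT males (31.6% in all, median -0.31). In male KO 1 of them fell (1.27%), and in female KO 3 fell (3.8%). Ndufb7, a subunit of complex I, fell in both sexes (-0.65 ± 0.14, edgeR adjusted p = 0.00458, in males and -0.80 ± 0.16, 0.0124, in females). Of 22 tested import genes, 1 (4.55%) rose in male KO, Tomm7 (0.54 ± 0.14, 0.0205), and 5 were lower and 1 higher in WT males (27.3% in all). Of 12 proteases and chaperones, 1 (8.33%) fell in male KO, Yme1l1, at 4.11 ± 1.59 CPM in that group. Of 19 tested cytosolic aminoacyl-tRNA synthetases edgeR called none for KO in either sex (1 in males and 2 in females at an unadjusted p under 0.05), and DESeq2 called 1 in males.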

How the data were processed

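RNA from 18 microglia libraries was measured by a bulk form of MARS-seq, per the labels' protocols. The authors deposited whole-number counts per gene before and after UMI correction, unscaled. The submitters' processing notes name cutadapt, STAR, HTSeq and the build mm10. Each table also held 16 columns that match no sample here and were not used. Symbols and coordinates came from GENCODE M21, and promoter sequences from the RefSeq table of GRCm38.p6. The members and gene lists were chosen with earlier results of these data known.

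UMI counts were fitted in edgeR 4.0.16 (R 4.3.3) with filterByExpr, TMM scaling and 1 mean per group over all 18 libraries (common biological coefficient of variation 17.8%). Standard errors (SE) were derived from the F statistic. Marker sums were scaled by library totals alone. Near-identical copies were searched with BLAST 2.17.0 in the last 300 bases of each member (identity of at least 95%); 16 members had one.

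The named members were, per comparison, up to 12 called in each direction by p, or the 3 lowest p where fewer passed, with the 5 highest and 5 lowest levels, every untested member, and Mrps18a, Mrps18b, Mrps18c and Mrps30. Up to 3 called genes were eligible in each other list. Alternatives were read counts, DESeq2 1.42.0, other scalings, no filter, only the groups compared, the range of reads per UMI, and libraries left out. The script was tested on simulated data.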

Additional observations from a re-analysis of the deposited data

Results flagged for a closer look

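In 7 of 112 groups of 4 or 5 libraries examined, over the 27 members named for a comparison and the summed level of all members, a library at one end stood apart from the rest of its group by a gap that was large against the group's whole range. Chance flags about 1 in 20 groups, so several such gaps are to be expected. Female KO 33, the library with the fewest UMIs, accounted for 3 of them. It was highest for Mrpl11 at 61.8 CPM (the others 42.1 to 44.0), highest for Mrps28 at 66.9 (28.9 to 34.5) and lowest for Mrps36 at 0 (1.84 to 2.06). Male KO 6 was lowest for Mrpl55 at 60.9 (66.9 to 68.8) and for Mrps26 at 67.5 (84.7 to 90.6). Male WT 11 was highest for Mrpl50 at 9.85 (5.01 to 6.38), and female WT 31 was highest for Mrps18c at 42.2 (31.4 to 32.8). Without female KO 33, 11 members rather than 6 were called for KO averaged over the sexes, and 4 rather than 0 in females: Mrpl27, Mrpl33, Mrpl51 and Mrps21.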

How the results depend on the processing

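The count of members called for KO in males, 2, was 0 on read counts, 4 with DESeq2, 8 with only the groups compared, 4 with the range of reads per UMI as covariate and 1 without male KO 6, 9 and 17; leaving out a replicate gave 1 to 2. In females the count, 0, was 1 with the covariate and 3 without female KO 33 and female WT 34, and 0 to 4 with a replicate left out. Averaged over the sexes the count, 6, was 0 on read counts, 3 with the covariate, 11 without female KO 33 and female WT 34, 2 without male KO 6, 9 and 17, and 2 (without female WT 30) to 11 (without female KO 33) with a replicate left out. For the sexes in WT the count, 13, was 1 with the covariate and 8 to 17 with a replicate left out. In KO the count, 8, was 3 on read counts, 5 with only the groups compared, 3 with the covariate, 0 without male KO 6, 9 and 17, and 1 (without female KO 7) to 11 with a replicate left out; it was 3 without female KO 1. The cause was not tested.

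The median log2 fold change of the members in females, 0.02, was 0.091 with library totals alone and 0.085 with no filter. For the difference of KO effects it was 0.075 without male KO 6, 9 and 17 and -0.041 to 0.083 with a replicate left out. For the sexes in WT it was 0.13 with no filter. Among 939 values of named members, 760 kept their direction and side of the threshold, 160 lost a call, 17 gained one and 2 changed sign: Mrps21 in females on read counts (0.036, edgeR adjusted p = 0.962) and Mrpl33 between the sexes in WT with the covariate (0.018, 0.993). No paired analysis was possible because every library has a replicate number of its own. A level of 10 CPM is 4.36 UMIs in the smallest female library and 20.2 in the smallest male one, so depth limits members at such levels.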
